A study of Homo sapiens with 4 samples.

Results

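The genes for the subunits of the 3 nuclear RNA polymerases and for the general transcription factors were followed across 4 populations of H1299, a lung cancer line of human origin (non-small cell type). Members were all probes whose gene symbol begins with POLR1, POLR2 or POLR3 and a letter, with GTF2 or GTF3, or with TAF and a number. This gave 80 probes of 66 genes, of 30968 probes on the array, of which 17397 carry 1 gene symbol and cover 15240 genes. There were 53 members with 1 probe, 12 with 2 probes and 1 with 3 probes.

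The populations were Oct4/GFP (+), Oct4/GFP (−), Nestin/GFP (+) and Nestin/GFP (−), with 1 array each. Cells had been electroporated with a plasmid in which the promoter of Oct4, a pluripotency factor, or of nestin, an intermediate filament protein of neural progenitors, drives green fluorescent protein (GFP), and were selected with neomycin. The GFP (+) cells of each line were those with a stable reporter, sorted for high GFP, and RNA was taken after 24 h of culture. The labels call the GFP (−) cells negative for the reporter and do not say whether these had lost GFP or had never held the plasmid. In other experiments the paper sorted GFP (−) cells from cultures that had been GFP (+), but its array methods describe only GFP (+) cells. All 4 populations are the same parental line, and nothing says whether a line was 1 clone. GFP reports the activity of a plasmid promoter and is not itself a reading of the cell's own Oct4 or nestin gene. By quantitative PCR the paper found more Oct4 and Sox2 RNA in Oct4/GFP (+) than in GFP (−) cells. It likewise found more nestin RNA in Nestin/GFP (+) than in GFP (−) cells.

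RNA polymerase II makes messenger RNA, RNA polymerase I makes the large ribosomal RNA, and RNA polymerase III makes transfer RNA and other short RNAs. Each is a complex of many subunits, some of which are shared among the polymerases. The enzymes do not find a promoter alone: TFIID, which is the TATA-binding protein with its TAF proteins, marks the start, and TFIIA, TFIIB, TFIIE, TFIIF and TFIIH complete the complex, with SL1 doing the like for polymerase I and TFIIIA, TFIIIB and TFIIIC for polymerase III.

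With 1 array per population no pairwise difference has a test, and precision is limited by this number of arrays. All 4 labels carry replicate number 1, and nothing says that the RNA came from more than 1 culture. The values are 1-colour intensities, normalized here so that the 4 arrays share 1 distribution, and a probe was called above background when its intensity exceeded 3 times the noise on its array. The median intensity of an array was only 4 to 9, against limits of 13.9 to 22.7. The Oct4/GFP (−) array was the dimmest, with 19.5% of its probes above background against 26.3% to 29.1% on the other arrays, and its lowest normalized value above background was 30.5, against 16.25 to 18.5 elsewhere. The Oct4/GFP (+) array stood apart in another way: 129 of its probes lay more than 8-fold off the average over the remaining arrays, against 10, 3 and 3 such probes on the Oct4/GFP (−), Nestin/GFP (+) and Nestin/GFP (−) arrays. The comparison of the GFP (−) arrays does not use that array and is given beside most of the results that do. VIM, a mesenchymal filament gene, was above background on all 4 arrays, whereas EPCAM, NES and SOX2 were above background on none, so the array did not check the nestin label. Of 9 leukocyte, endothelium and fibroblast markers with a probe, 4 were above background somewhere and 0 on all 4 arrays.

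The polymerase and factor genes were detected more often than the average gene. On all 4 arrays 31 of 66 members were above background (47.0%, against 18.7% of all genes), and 46 were above background on at least 1 array (69.7%, against 50.8%). By population, 41, 37, 40 and 40 members were above background in Oct4/GFP (+), Oct4/GFP (−), Nestin/GFP (+) and Nestin/GFP (−) cells, where 35.6%, 26.1%, 35.7% and 38.0% of all genes were. A gene counted as detected on an array when any of its probes was. The families were unequal. All 12 polymerase II subunits were detected everywhere. Of the others, 1 of 5 polymerase I genes, 3 of 9 polymerase III genes and 6 of 18 TFIID TAFs and their paralogs were. The 20 members above background on no array were POLR1B, POLR3A, POLR3B, POLR3C, POLR3D, POLR3E, GTF2A1L, GTF2E2, GTF2H3, GTF2IRD1, GTF3C1, GTF3C5 and 8 of the TFIID TAFs and their paralogs: TAF1, TAF4, TAF4B, TAF5, TAF5L, TAF7, TAF7L and TAF13. In bulk RNA of this kind, fewer cells that use a gene and less of its RNA per cell cannot be told apart.

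**Figure D1:**
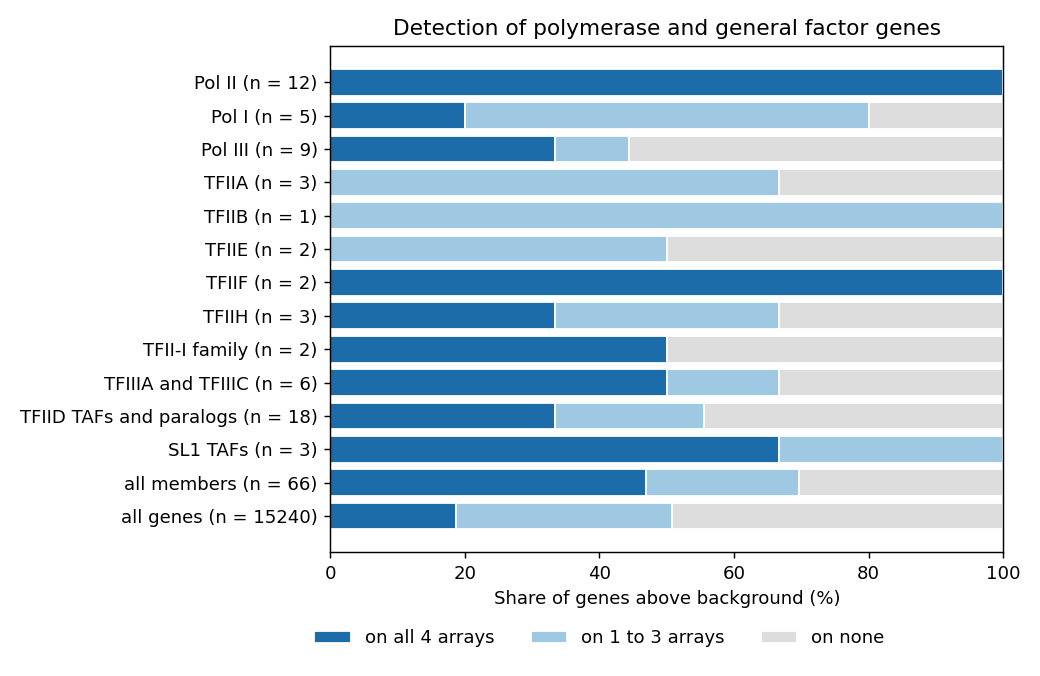
Share of genes in each family above background on all 4 arrays, on 1 to 3 arrays or on none, in percent. All 12 polymerase II genes lie in the first class, against 18.7% of the 15240 genes on the array.

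To show what lies upstream of the genes on which the comparisons turn, the 150 bases before the transcription start are printed for POLR2D, POLR2C and GTF2H5, which were lower on both Oct4 line arrays, and for POLR2L and GTF2F1, which were higher. They come from RefSeq (GRCh38.p14), where 54 of the 66 members had such a window. Capitals mark the GC box GGGCGG, which Sp1 family proteins bind, and CCGGAAG, a core of ETS factor sites, on either strand.
POLR2D (chr2:127858156-127858305, minus strand): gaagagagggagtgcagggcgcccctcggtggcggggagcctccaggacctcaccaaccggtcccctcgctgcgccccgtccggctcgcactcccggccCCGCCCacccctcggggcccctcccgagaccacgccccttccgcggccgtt
POLR2C (chr16:57462529-57462678, plus strand): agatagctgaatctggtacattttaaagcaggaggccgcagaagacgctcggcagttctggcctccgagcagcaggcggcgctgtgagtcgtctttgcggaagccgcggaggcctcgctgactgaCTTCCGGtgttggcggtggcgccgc
GTF2H5 (chr6:158168200-158168349, plus strand): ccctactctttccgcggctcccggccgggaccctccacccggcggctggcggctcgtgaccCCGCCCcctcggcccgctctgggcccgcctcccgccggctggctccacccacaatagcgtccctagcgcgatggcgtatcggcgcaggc
POLR2L (chr11:842530-842679, minus strand): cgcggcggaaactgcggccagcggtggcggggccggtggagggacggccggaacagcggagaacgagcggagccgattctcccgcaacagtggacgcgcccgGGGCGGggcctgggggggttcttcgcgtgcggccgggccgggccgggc
GTF2F1 (chr19:6393165-6393314, minus strand): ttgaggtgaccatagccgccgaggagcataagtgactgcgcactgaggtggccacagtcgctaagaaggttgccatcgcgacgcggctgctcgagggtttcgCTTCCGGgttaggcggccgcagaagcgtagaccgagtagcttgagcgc

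All 5 windows were rich in G and C, from 62.0% to 78.7%, and 0 of them held TATAAA, the letters that the TATA-binding protein reads. Among the 54 member windows, 2 held TATAAA on either strand (3.70%, against 7.05% of 27305 windows of all genes), 26 held GGGCGG (48.1%, against 36.7%) and 15 held CCGGAAG (27.8%, against 7.18%). No marked motif overlapped another in the printed windows. The GC box and the ETS core each occurred both among the printed genes that were lower and among those that were higher in the Oct4 line. A match is a string of letters and not a measured binding site.

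Between the GFP (+) cells of both lines, 11 of the 45 members with a value differed more than 2-fold, with 5 higher (12.8% of all genes were) and 6 lower (15.4%) in Oct4/GFP (+) cells. Between the GFP (−) cells, 15 of 44 did, with 7 higher (16.6% of all genes) and 8 lower (9.69%) in Oct4/GFP (−) cells. In either direction these shares stand against 28.2% and 26.2% of all genes. The median member differed by 0.09 and 0.08 on the log2 scale, against 0.06 and 0.16 for the median gene. As a group, then, the members were near the rest of the array, and the differences below are those of single genes and families.

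Scaling matters for the direction of these counts. With each array only centred on its median, the median of all genes moved to -0.96 between the GFP (+) arrays and to -0.51 between the GFP (−) arrays, and with values as deposited to -0.96 and -1.68. The members past 2-fold were then 0 higher and 22 lower between the GFP (+) arrays in both settings, and 3 higher and 16 lower (centred) or 1 higher and 35 lower (as deposited) between the GFP (−) arrays. The whole array moved likewise: 159 genes were higher and 2811 lower of 6733 between the GFP (+) arrays in both settings, and 373 higher and 1489 lower (centred) or 13 higher and 4187 lower (as deposited) of 6397 between the GFP (−) arrays. Centring on the median of probes detected everywhere gave 11 members higher and 6 lower, and 7 higher and 8 lower, against 1313 genes higher and 788 lower, and 1099 higher and 543 lower. Family medians are therefore also given relative to the median of all genes.

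In Oct4/GFP (+) cells 10 of the 12 polymerase II subunits were below their level in Nestin/GFP (+) cells, whereas 46.8% of all measured genes were. With the brightest probe of each gene the count was 8 of 12 (45.4% of all genes). The median difference was -0.25 on the log2 scale, or -0.31 relative to the median of all genes, and that relative value stayed between -0.58 and -0.18 under the 9 alternative settings. Between the GFP (−) cells, 6 of 12 were lower in the Oct4 line (42.4% of all genes). The median there was -0.07, or -0.23 relative to all genes, with -0.36 to -0.05 under the alternatives. For the 5 subunits that serve all 3 polymerases (POLR2E, POLR2F, POLR2H, POLR2K and POLR2L) the medians relative to all genes were -0.95 between the GFP (+) and -0.82 between the GFP (−) arrays. The 9 alternatives gave -1.29 to -0.68 and -0.97 to -0.38. Within this set POLR2E (0.32) and POLR2L (0.39) were above 0 between the GFP (−) arrays.

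POLR2D, which forms the stalk of polymerase II with POLR2G, had normalized intensities of 23.5 in Oct4/GFP (+), 93.5 in Oct4/GFP (−), 231 in Nestin/GFP (+) and 259.9 in Nestin/GFP (−) cells. Both Oct4 arrays lay below both Nestin arrays, by 9.83-fold between the GFP (+) populations and by 2.78-fold between the GFP (−) populations. Its log2 differences of -3.30 and -1.47 stayed past 2-fold in all 8 alternatives run on genes. The Oct4/GFP (+) reading was near background, at a deposited 21 against a limit of 15.3. With a limit of 5 noise SD POLR2D was not above background there, and the GFP (+) difference was a bound of -2.90.

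POLR2H, a small subunit of all 3 polymerases, gave 120.5 and 143.75 in Oct4/GFP (+) and Oct4/GFP (−) cells, against 365 and 300.0 in Nestin/GFP (+) and Nestin/GFP (−) cells. The groups again did not overlap, and the log2 differences were -1.60 between GFP (+) cells and -1.06 between GFP (−) cells. The second lost its place past 2-fold in 1 of 8 alternatives, with -0.85.

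POLR2F, another shared subunit, had the largest difference of any member. It was at 23.5 in Oct4/GFP (+) cells, 463 in Oct4/GFP (−) cells, 754.5 in Nestin/GFP (+) cells and 732 in Nestin/GFP (−) cells. Only the Oct4/GFP (+) array was low to this degree: 32.1-fold below Nestin/GFP (+) and 19.7-fold below Oct4/GFP (−), whereas the GFP (−) arrays differed by -0.66 on the log2 scale. That low reading was near background, at a deposited 21 against a limit of 15.3. With a limit of 5 noise SD the difference from Nestin/GFP (+) was a bound of -4.61. POLR2F has 1 probe, and it is the only member among the probes that lay more than 8-fold from the other 3 arrays. Without it, 10 members were past 2-fold between the GFP (+) arrays, and the polymerase II median relative to all genes was -0.24.

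The remaining subunits with lower values in the Oct4 line were less far apart. POLR2K, a small zinc-binding subunit shared by the polymerases, read 94.25 and 34.5 on the Oct4/GFP (+) and Oct4/GFP (−) arrays and 118.5 and 110.5 on the Nestin/GFP (+) and Nestin/GFP (−) arrays. Its difference was -0.33 between GFP (+) and -1.68 between GFP (−) cells, so that here the Oct4/GFP (−) array was the low one. That reading was near background, at a deposited 15 against a limit of 13.9. The GFP (−) difference was past 2-fold in 6 of 8 alternatives, with -0.78 at a limit of 5 noise SD. POLR2C, which pairs with POLR2J as the assembly platform of the enzyme, read 238 on both Oct4 arrays, against 268 and 279 on the Nestin/GFP (+) and Nestin/GFP (−) arrays, a small but non-overlapping gap.

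POLR2J and POLR2L ran the other way. POLR2J had 2219 and 1829.5 in Oct4/GFP (+) and Oct4/GFP (−) cells, against 1376 and 1245 in Nestin/GFP (+) and Nestin/GFP (−) cells. POLR2L, a shared subunit, had 14214 on both Oct4 arrays, against 6452 in Nestin/GFP (+) and 10837 in Nestin/GFP (−) cells. The log2 differences were 0.69 and 0.56 for POLR2J and 1.14 and 0.39 for POLR2L between the GFP (+) and the GFP (−) arrays. This direction was relative to the other genes of an array: with arrays only centred on their median, or as deposited, neither gene lay above on both Oct4 arrays. The probe sequences were not used here, so hybridisation of the POLR2J probe with its near-identical copies POLR2J2 and POLR2J3 was not tested.

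POLR2A, the catalytic subunit whose tail coordinates RNA processing, overlapped between the lines, at 116.75 and 189 in Oct4/GFP (+) and Oct4/GFP (−) cells, against 146.75 and 95.0 in Nestin/GFP (+) and Nestin/GFP (−) cells. POLR2B, the other large subunit of the active centre, had 270 and 202 in Oct4/GFP (+) and Oct4/GFP (−) cells, against 279.5 and 189.75 in Nestin/GFP (+) and Nestin/GFP (−) cells. POLR2E, a shared subunit, had 126 and 276 on the Oct4/GFP (+) and Oct4/GFP (−) arrays and 235 and 221.5 on the Nestin/GFP (+) and Nestin/GFP (−) arrays. None of these was past 2-fold between the lines.

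**Figure D2:**
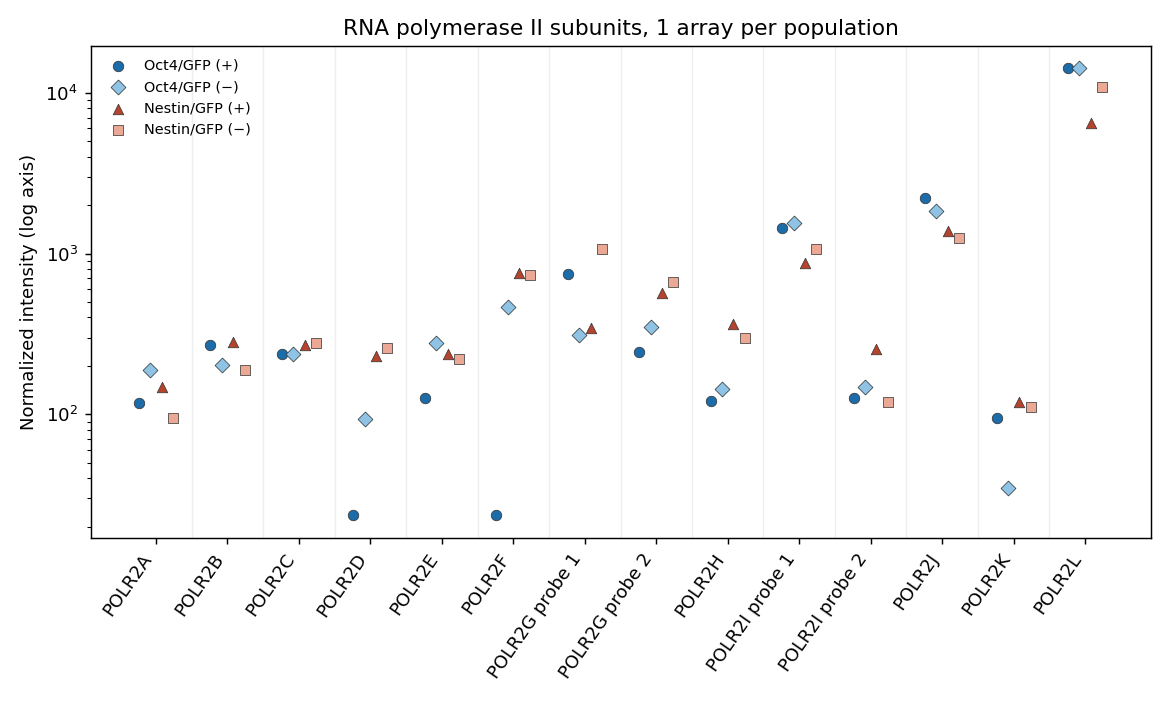
Normalized intensity (log axis) of the 14 polymerase II probes above background on all 4 arrays, 1 point per array with no error bar, since there is 1 array per population. POLR2D and POLR2H are low on both Oct4 arrays, POLR2F on the Oct4/GFP (+) array, and POLR2J and POLR2L are higher on both Oct4 arrays.

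POLR2G and POLR2I had more than 1 probe above background, and their probes differed. For POLR2G, 1 probe read 745 and 313 in Oct4/GFP (+) and Oct4/GFP (−) cells, against 344 and 1072 in Nestin/GFP (+) and Nestin/GFP (−) cells. The other read 245 and 351 on the Oct4/GFP (+) and Oct4/GFP (−) arrays, against 565 and 660.25 on the Nestin/GFP (+) and Nestin/GFP (−) arrays. The GFP (+) comparison was thus higher by one probe and lower by the other in the Oct4 line, while both probes were lower in the GFP (−) comparison, where the gene's mean difference was -1.34. For POLR2I, which lies at the jaw of the enzyme, 1 probe read 1451 and 1557 on the Oct4/GFP (+) and Oct4/GFP (−) arrays, against 879 and 1064 on the Nestin/GFP (+) and Nestin/GFP (−) arrays. Its second probe read 126 and 147.5, against 253.5 and 119.25, in the same order. Such splits were common: over 276 genes with at least 2 measured probes, the median range between a gene's probes was 0.84 on the log2 scale between the GFP (+) arrays, and it was past 1 for 41.7%.

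Across all 31 members detected everywhere, both Oct4 arrays lay below both Nestin arrays for 9 (29.0%, against 19.2% of 2853 genes) and above both for 9 (29.0%, against 29.8%). Of the 9 that were lower, 6 were polymerase II subunits: POLR2C, POLR2D, POLR2F, POLR2G, POLR2H and POLR2K. The others were GTF2H5, POLR3K and TAF6L. POLR2C, POLR2H, POLR3K and TAF6L were on the same side in all 8 alternatives run on genes, GTF2H5, POLR2D and POLR2K in all 7 that gave them a value, and POLR2F in all 6. POLR2G, whose probes went opposite ways between the GFP (+) arrays and averaged -0.04 there, was on that side in 7 of 8 and overlapped with the brightest probe. The 9 that were higher were GTF2F1, GTF2I, GTF3C2, POLR2J, POLR2L, TAF1A, TAF1B, TAF3 and TAF9B. The Oct4/GFP (−) level of TAF1B was the floor of that array (30.5), with 1 of its 2 probes not above background there, and TAF1B was above in 2 of 6 alternatives. With arrays only centred on their median, 0 members were higher on both Oct4 arrays (4.17% of all genes were) and 17 were lower (54.8%, against 56.9% of all genes). With values as deposited 0 were higher (0.140% of all genes were) and 24 lower (77.4%, against 76.8%). Both settings moved most genes to the lower side, so a lower gene staying there in them says little about that gene, and a higher gene leaving its side likewise.

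The 2 reporter comparisons share no array. Over the 31 members their log2 differences had r = 0.27, over the 12 polymerase II genes r = 0.44 and over all 2853 genes r = 0.29. These are correlations across genes, which are not independent replicates. Both differences were below 0 for 10 of the 31 members (692 of all 2853 genes) and above 0 for 10 (1035 of all genes).

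**Figure D3:**
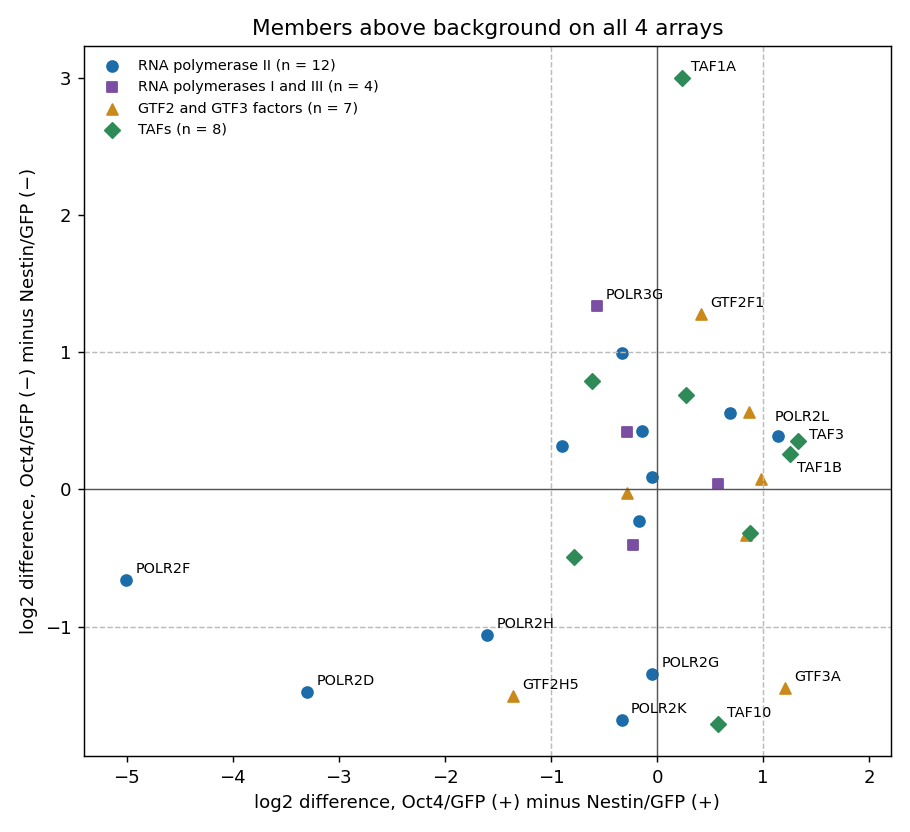
Log2 difference between the lines in GFP (−) cells (vertical) against that in GFP (+) cells (horizontal) for the 31 members above background on all 4 arrays, 1 point per gene. Dashed lines mark 2-fold. POLR2D, POLR2H and GTF2H5 lie past 2-fold below 0 on both axes, and GTF3A lies on opposite sides.

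A limma fit over the 4 arrays, with reporter line and GFP state as additive terms and 1 residual degree of freedom, gave the only SE for these differences. It treats the line difference as equal in GFP (+) and GFP (−) cells. The residual is thus how far these line differences part, and not a spread between replicates. Each SE also leans on a prior taken from all fitted genes, with 4.81 degrees of freedom and an SD of 0.44. For 4 of 31 members the line term had an unadjusted p under 0.05 (13.5% of the 2853 genes did), all 4 of them lower in the Oct4 line (5.12% of the genes were). These were POLR2D with -2.39 ± 0.55 (SE), GTF2H5 with -1.43 ± 0.40 (SE), POLR2H with -1.33 ± 0.42 (SE) and POLR2F with -2.83 ± 0.99 (SE), each with a BH adjusted p of 0.339 to 0.354 by limma. After Benjamini-Hochberg adjustment over all 2853 genes by limma, 0 members and 0 genes passed 0.05, and the lowest adjusted p of a member was 0.339. This depended on the scaling: 8 members and 520 genes passed with arrays centred on their median, 2 members and 100 genes with the median of probes detected everywhere as the centre, and 17 members and 1399 genes with values as deposited. The largest positive estimate was that of TAF1A, 1.61 ± 0.70 (SE). For the GFP term 0 of 31 members had an unadjusted p under 0.05 (2.38% of all genes did), and the lowest adjusted p was 0.996.

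**Figure D4:**
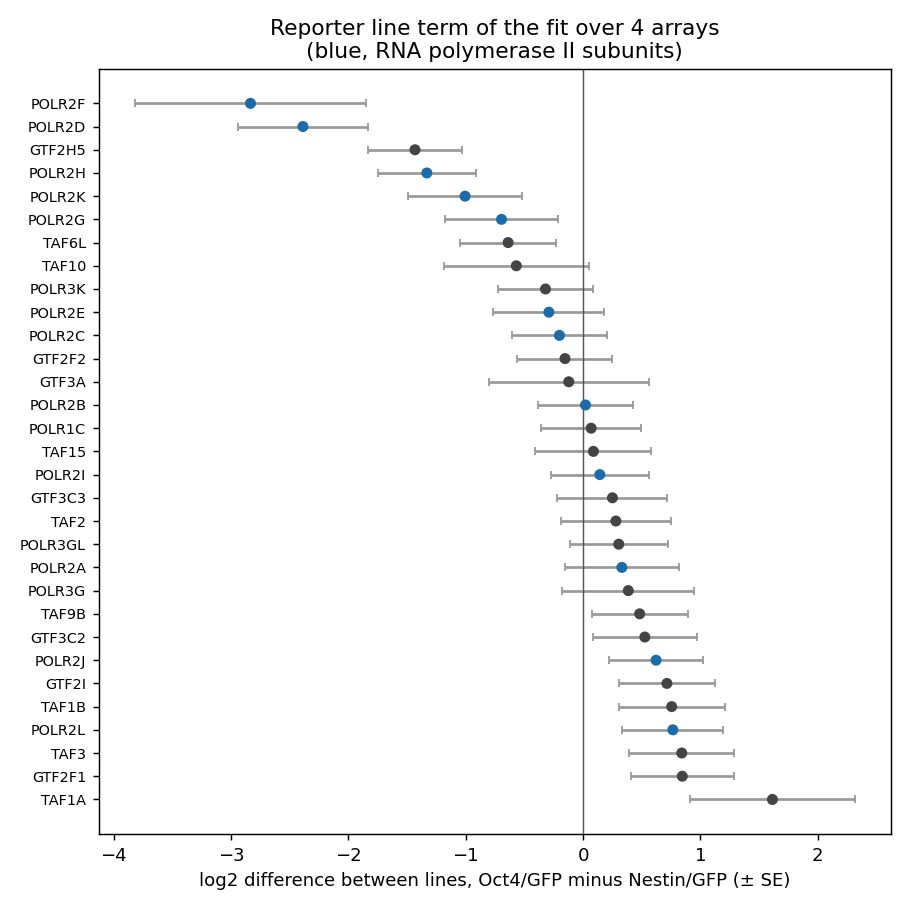
Line term of the limma fit over 4 arrays for the 31 members detected on all of them, as the log2 difference Oct4/GFP minus Nestin/GFP, with bars of 1 SE. Blue points are polymerase II subunits. POLR2F, POLR2D, GTF2H5 and POLR2H are the 4 lowest. On these quantile-normalized values 0 members passed 0.05 after adjustment by limma, whereas 8, 2 and 17 did with the arrays centred on their median, centred on probes detected everywhere, or as deposited.

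Polymerase I was near background. POLR1C, which polymerases I and III share, was its only gene above background on all arrays, at 181 and 177 in Oct4/GFP (+) and Oct4/GFP (−) cells, against 220.5 and 132 in Nestin/GFP (+) and Nestin/GFP (−) cells. POLR1D, its partner, was above background on 3 arrays and missed on Oct4/GFP (−). POLR1A, the catalytic subunit, was above background only on the Oct4/GFP (−) array, at a normalized 38.75. As deposited it read 4 and 16 in Oct4/GFP (+) and Oct4/GFP (−) cells and 15 in both Nestin populations. On the normalized scale the gap came to 2.38-fold above the floor of Nestin/GFP (−) and 2.25-fold above that of Oct4/GFP (+), but each was past 2-fold in only 4 of 6 alternatives.

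POLR1E belongs to a dimer that helps polymerase I start and elongate. Its deposited intensities were -6 and 4 in Oct4/GFP (+) and Oct4/GFP (−) cells, against 43 and 37 in Nestin/GFP (+) and Nestin/GFP (−) cells. It was thus above background on both Nestin arrays and on neither Oct4 array, as were TAF11 and TAF1C, 3 of 66 members in all (4.55%, against 3.60% of all genes). The reverse held for GTF2E1 and POLR3F, 2 members (3.03%, against 0.728%). As deposited GTF2E1 read 24 and 23 in Oct4/GFP (+) and Oct4/GFP (−) cells, against 19 and 0 in Nestin/GFP (+) and Nestin/GFP (−) cells. The reading of 19 was under the limit of its own array, 22.7, but over those of the Oct4/GFP (+) and Oct4/GFP (−) arrays, 15.3 and 13.9. A pair of polymerase I subunits that the array lists under older symbols fell outside the rule. CD3EAP, now POLR1G and the dimer partner of POLR1E, read 6 on both Oct4 arrays as deposited, against 73 and 72 on the Nestin/GFP (+) and Nestin/GFP (−) arrays. TWISTNB, now POLR1F, read 24 and 16 on the Oct4/GFP (+) and Oct4/GFP (−) arrays, against 73 and 65 on the Nestin/GFP (+) and Nestin/GFP (−) arrays. After normalization the line differences of TWISTNB were -0.78 between GFP (+) and -0.35 between GFP (−) cells.

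Polymerase III was represented by POLR3G, POLR3GL and POLR3K on all arrays. POLR3G, a subunit known from pluripotent cells, had 176 and 351 in Oct4/GFP (+) and Oct4/GFP (−) cells, against 260.5 and 139 in Nestin/GFP (+) and Nestin/GFP (−) cells. The highest level was on the Oct4/GFP (−) array, where it was 2.53-fold above Nestin/GFP (−), while the GFP (+) difference was -0.57. With values as deposited, the GFP (−) difference of POLR3G was -0.69, so its direction rests on the scaling.

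POLR3GL, the alternative form of the same subunit, varied little, at 89.25 and 49.75 in Oct4/GFP (+) and Oct4/GFP (−) cells, against 60 and 48.5 in Nestin/GFP (+) and Nestin/GFP (−) cells. POLR3K, which takes part in termination, had 158 and 137.5 on the Oct4/GFP (+) and Oct4/GFP (−) arrays, against 185.5 and 182 on the Nestin/GFP (+) and Nestin/GFP (−) arrays, with no overlap. POLR3F was above background on both Oct4 arrays only, and its normalized Oct4/GFP (−) level was at least 2.38-fold that of Nestin/GFP (−) cells, past 2-fold in 4 of 6 alternatives. The large catalytic subunit POLR3A was above background on no array.

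TFIIF escorts polymerase II to the promoter. GTF2F1, its large subunit, had 897.5 and 1652 in Oct4/GFP (+) and Oct4/GFP (−) cells, against 673 and 681.5 in Nestin/GFP (+) and Nestin/GFP (−) cells. Both Oct4 arrays were above both Nestin arrays, by 0.41 and 1.28 on the log2 scale, but with values as deposited the GFP (−) difference was -0.73. The first GTF2F2 probe, above background on the Oct4/GFP (−) array only, and the second, on the other 3 arrays, did not agree on where the gene was high, so no single probe measured the gene in all 4 populations. The gene's differences between the lines were -0.28 and -0.02.

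TFIIH opens the promoter DNA and also serves nucleotide excision repair. GTF2H5, its smallest subunit, had 55.25 and 56.0 in Oct4/GFP (+) and Oct4/GFP (−) cells, against 141.5 and 159 in Nestin/GFP (+) and Nestin/GFP (−) cells. It was 2.56-fold and 2.84-fold lower in the Oct4 line, with nearly equal values within each line. GTF2H1, a core subunit, had 26.25 in Oct4/GFP (+) and 62.75 in Nestin/GFP (+) cells, 2.39-fold lower in the Oct4 line, and was not above background in Oct4/GFP (−) cells, where it lay at least 1.63-fold below Nestin/GFP (−).

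The other TFIIH genes were listed separately as partners. ERCC3, the helicase that opens the promoter, read 39 and 30 as deposited in Oct4/GFP (+) and Oct4/GFP (−) cells, against 156 and 274 in Nestin/GFP (+) and Nestin/GFP (−) cells, with normalized log2 differences of -0.92 and -1.42. MNAT1, of the kinase module, was higher in the Oct4 line, by 1.13 between GFP (+) and 1.58 between GFP (−) cells. CDK7, the kinase itself, differed by -0.19 and -0.65. ERCC2 differed by -0.05 between GFP (+) cells and by a bound of -1.69 between GFP (−) cells, and CCNH was above background on no array. TFIIH genes therefore did not all lie on one side, but only MNAT1 was above 0.

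TFIIA, TFIIB and TFIIE were at the edge of detection. GTF2A1 was above background on 3 arrays and missed on Oct4/GFP (+), where its normalized level was at least 2.68-fold below Oct4/GFP (−). This was past 2-fold in 4 of 7 alternatives, and the log2 difference was -0.17 as deposited. GTF2A2, the small subunit, was missed on Oct4/GFP (−). GTF2B, the bridge between the promoter and the polymerase, was above background only on the Oct4/GFP (+) array, by 1 of its probes with a deposited intensity of 24. GTF2E1, which recruits TFIIH, had 27.75 and 61.5 in Oct4/GFP (+) and Oct4/GFP (−) cells and was not above background in Nestin cells. The normalized gap was at least 3.78-fold between the GFP (−) arrays, and 2.22-fold lower in Oct4/GFP (+) than in Oct4/GFP (−) cells. With values as deposited, the first of these was 0.13 on the log2 scale, no longer past 2-fold, and the second 0.06, with the opposite sign.

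GTF2I, the multifunctional TFII-I protein, had 740.5 and 660.25 in Oct4/GFP (+) and Oct4/GFP (−) cells, against 405 and 448 in Nestin/GFP (+) and Nestin/GFP (−) cells. The groups did not overlap, with differences of 0.87 and 0.56. With arrays only centred on their median, GTF2I was no longer above on both Oct4 arrays.

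Of the polymerase III factors, GTF3A, the zinc finger protein that recognises the 5S ribosomal RNA genes, stood out. Its normalized intensities were 323 in Oct4/GFP (+) and 64.25 in Oct4/GFP (−) cells, against 140.0 in Nestin/GFP (+) and 175.5 in Nestin/GFP (−) cells. The Oct4/GFP (+) array was the highest and the Oct4/GFP (−) array the lowest, so that the line difference was 1.21 in GFP (+) and -1.45 in GFP (−) cells. The first of these was -0.11 with arrays centred on their median or as deposited. The difference within the Oct4 line, 5.03-fold higher in Oct4/GFP (+) cells, was past 2-fold in all 8 alternatives.

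TFIIIC, which binds inside transfer RNA genes, was mixed. GTF3C3 had 331 and 276 in Oct4/GFP (+) and Oct4/GFP (−) cells, against 185.75 and 348 in Nestin/GFP (+) and Nestin/GFP (−) cells. For GTF3C2, 1 probe read 162.875 and 96.25, against 110.5 and 91.5, and the other 52.5 and 49.75, against 20.0 and 47.0, in that order. GTF3C4 was above background on 3 arrays and missed on Nestin/GFP (+). Oct4/GFP (−) lay 3.18-fold below Nestin/GFP (−), and Nestin/GFP (+) at least 5.24-fold below Nestin/GFP (−). The Oct4/GFP (−) level was the floor of that array (30.5). The first difference was past 2-fold in 6 of 8 alternatives, with -0.59 on the log2 scale at a limit of 5 noise SD.

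The TFIID genes and their paralogs had a higher median in Oct4/GFP (+) relative to Nestin/GFP (+) cells, by 0.42 over 8 measured genes, and relative to all genes the median stayed above 0 in the 9 alternatives, whereas unadjusted it was below 0 in 2 of them. Between the GFP (−) cells the median was 0.02, which is -0.14 relative to all genes, and this relative value was below 0 in the 9 alternatives (-0.53 to -0.04). TAF10, a histone fold subunit of both TFIID and the SAGA complex, had 1084 and 757 in Oct4/GFP (+) and Oct4/GFP (−) cells, against 729 and 2474 in Nestin/GFP (+) and Nestin/GFP (−) cells. Only that last array was high, which gave log2 differences of -1.71 for Oct4/GFP (−) against Nestin/GFP (−) and -1.76 for Nestin/GFP (+) against Nestin/GFP (−).

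TAF3, a subunit that binds methylated histone tails, had 56.5 and 52.75 on the Oct4/GFP (+) and Oct4/GFP (−) arrays, against 22.5 and 41.25 on the Nestin/GFP (+) and Nestin/GFP (−) arrays. TAF2, which contacts the start site, had 165.25 and 78.0 in Oct4/GFP (+) and Oct4/GFP (−) cells, against 90.1 and 97.0 in Nestin/GFP (+) and Nestin/GFP (−) cells. TAF9B, close to TAF9, had 223.5 and 189 on the Oct4/GFP (+) and Oct4/GFP (−) arrays, against 184.5 and 117.25 on the Nestin/GFP (+) and Nestin/GFP (−) arrays. TAF3 and TAF9B were non-overlapping between the lines and TAF2 was not. The log2 differences of TAF3 were 1.33 between GFP (+) cells, past 2-fold in 5 of 8 alternatives, and 0.35 between GFP (−) cells.

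TAF6L, the SAGA form of TAF6, was lower in the Oct4 line, with 66.5 and 67.0 in Oct4/GFP (+) and Oct4/GFP (−) cells, against 114.5 and 94.25 in Nestin/GFP (+) and Nestin/GFP (−) cells. TAF6 itself had 40.75 and 102.25 on the Oct4/GFP (+) and Oct4/GFP (−) arrays and 35.0 on the Nestin/GFP (+) array, and was not above background in Nestin/GFP (−) cells, with a normalized gap of at least 6.29-fold to Oct4/GFP (−). As deposited these populations read 37 (Oct4/GFP (−)) and 19 (Nestin/GFP (−)), and the log2 difference was 0.82, no longer past 2-fold. TAF15, an RNA-binding protein of the FET family, had 122 and 169.5 on the Oct4/GFP (+) and Oct4/GFP (−) arrays, against 186.75 and 98.25 on the Nestin/GFP (+) and Nestin/GFP (−) arrays, with overlap.

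Both TAF12 probes, of a SAGA and TFIID histone fold subunit, were highest in Oct4/GFP (+) cells, at 40.75 and 71.0, against 17.25 (not above background) and 33.5 in Nestin/GFP (+) cells, and neither was above background in Oct4/GFP (−) cells. The gene's Oct4/GFP (+) level was 2.16-fold that of Nestin/GFP (+) cells, but this was past 2-fold in only 4 of 8 alternatives, with a log2 difference of 0.32 when centred on the median or as deposited. The GFP (−) comparison gave no value. TAF8 was above background only in Oct4/GFP (+) cells and TAF11 only in the Nestin populations.

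SL1, which brings polymerase I to the ribosomal RNA genes, was detected through TAF1A, TAF1B and TAF1C. TAF1A had 47.0 and 147.5 in Oct4/GFP (+) and Oct4/GFP (−) cells, against 40.0 and 18.5 in Nestin/GFP (+) and Nestin/GFP (−) cells. The Oct4/GFP (−) array was 7.97-fold above Nestin/GFP (−), a difference past 2-fold in all 8 alternatives, while the GFP (+) arrays differed by 0.23. The size of the GFP (−) difference depended on the setting. On the log2 scale it was 2.995, but 1.09 as deposited and 1.53 with an offset of 50 and no limit. The Nestin/GFP (−) reading was near background, at a deposited 24 against a limit of 20.3. For TAF1B, 1 probe read 49.75 and 30.5 on the Oct4/GFP (+) and Oct4/GFP (−) arrays, against 13.5 (not above background) and 20.0 on the Nestin/GFP (+) and Nestin/GFP (−) arrays. The other read 66.5 and 13.75 (not above background), against 31.5 and 32.5, in the same order. The gene's mean over both probes was 2.38-fold higher in Oct4/GFP (+) cells, relative to Nestin/GFP (+) cells, past 2-fold in 4 of 8 alternatives. Between GFP (−) cells the difference was 0.26, with the Oct4/GFP (−) level at the floor of that array. TAF1C went the other way, at 64.5 in Nestin/GFP (+) and 29.25 in Nestin/GFP (−) cells and above background in neither Oct4 population, with Oct4/GFP (+) at least 3.74-fold below Nestin/GFP (+).

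Within the Oct4 line, 11 of 43 members differed more than 2-fold between GFP (+) and GFP (−) cells, 3 higher (8.47% of all genes) and 8 lower (15.6%). The higher ones were GTF3A with 2.33, POLR2K with 1.45 and TAF2 with 1.08. The lower ones were led by POLR2F with -4.30, POLR2D with -1.99 and TAF1A with -1.65. This comparison uses the arrays of both reporter comparisons above, so its values are not independent of them. With values as deposited the split was 23 higher and 1 lower (2383 and 140 of all 6189 genes), where the median of all genes was 1.00, and with arrays centred on their median it was 3 and 4 (578 and 573 genes).

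Within the Nestin line 5 of 41 members were past 2-fold, with 3 higher (6.97% of all genes) and 2 lower (5.48%) in GFP (+) cells. The higher ones were TAF1C with 1.14, TAF1A with 1.11 and TAF6 with a bound of 1.11. TAF10 and GTF3C4 were the 2 lower ones. None of the 12 polymerase II subunits was past 2-fold here, and their range was -0.93 to 0.63. With arrays centred on their median the split was 12 higher and 1 lower (1684 and 140 of all 6569 genes), with the probes above background on all 4 arrays as the centre 0 and 5 (342 and 687 genes), and as deposited 9 and 2 (840 and 310 genes). Both GFP (+) arrays were above both GFP (−) arrays for POLR1C, POLR2B and POLR3GL, 3 of 31 members (9.68%, against 12.3% of all genes), and below both for GTF2F2 (3.23%, against 10.7%), whose Oct4/GFP (−) level was the floor of that array, with 1 of its 2 probes not above background there.

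Partners of these complexes outside the naming rule were measured too. Of 22 such genes 20 had a probe, 17 were above background somewhere and 10 on all arrays. TBP, the TATA-binding protein at the core of TFIID and SL1, was above background on none, with deposited intensities of -5 and 3 in Oct4/GFP (+) and Oct4/GFP (−) cells and -17 and 7 in Nestin/GFP (+) and Nestin/GFP (−) cells. Between the GFP (+) arrays 2 of 15 partners were more than 2-fold higher (12.8% of all genes) and 1 lower (15.4%) in Oct4 cells, and between the GFP (−) arrays 3 of 16 were higher (16.6%) and 3 lower (9.69%), with medians of -0.19 and 0.30.

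SNAPC2, a subunit of the factor that starts small nuclear RNA genes, was the partner lower in Oct4/GFP (+) cells. It read 26 and 41 as deposited in Oct4/GFP (+) and Oct4/GFP (−) cells, against 391 and 337 in Nestin/GFP (+) and Nestin/GFP (−) cells, with normalized log2 differences of -2.86 and -1.21. It was thus low on both Oct4 arrays. UBTF, the architectural factor of ribosomal RNA genes, differed by -0.19 and 0.31, and RRN3, which links polymerase I to SL1, by 0.11 and 1.14.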

How the data were processed

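The authors deposited 1 table of intensity values for 30968 probes (Phalanx Human OneArray, Cy3), linear whole numbers with background already subtracted. Their software and scaling: not given in the sources used here. Noise SD was the root mean square of an array's values below 0, and the background limit was 3 noise SD. Arrays were quantile normalized, values at or below the limit were set to the array's lowest normalized value above it, and log2 was taken. A gene was the mean of those probes that passed the limit somewhere. A gene above background on 1 of 2 arrays has a bound, written as at least a given fold. Counts are of differences past 2-fold. The additive fit used limma 3.58.1 in R 4.3.3, with Benjamini-Hochberg adjustment over 2853 genes, and the rest Python 3.11.15. Scripts were tested on simulated data. Symbols came from the platform annotation, and sequences from RefSeq (GRCh38.p14).

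Members, families and lists were chosen with earlier results of these data known. Named were members past 2-fold in a comparison, up to 6 each way, and those above background on all arrays. SNAPC2, ERCC2, ERCC3, CCNH, MNAT1, UBTF and RRN3 were named after their values were seen. The naming rule covered members only. Other genes from the lists, such as CDK7, TBP, SSRP1, SUPT4H1, SUPT5H, CDK9, LEO1 and TRRAP, were therefore also named outside it.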

Additional observations from a re-analysis of the deposited data

Results flagged for a closer look

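Differences in opposite directions, each past 2-fold, were seen for 3 members, and in no case was the difference between the differences tested, since each population has 1 array. TAF1A was lower in Oct4/GFP (+) than in Oct4/GFP (−) cells, by -1.65 on the log2 scale, and higher in Nestin/GFP (+) than in Nestin/GFP (−) cells, by 1.11. TAF6 likewise differed by -1.33 in the Oct4 line and by a bound of 1.11 in the Nestin line. GTF3A differed by 1.21 for Oct4/GFP (+) against Nestin/GFP (+) cells, and by -1.45 for Oct4/GFP (−) against Nestin/GFP (−) cells. Each of the 3 genes has 1 probe above background. How many of all genes show such a pattern was not counted. The Nestin line differences of TAF1A and TAF6 were each past 2-fold in 5 of 8 alternatives. In the Oct4 line these were 7 of 8 for TAF1A and 6 of 8 for TAF6. For GTF3A they were 5 of 8 between the GFP (+) and 7 of 8 between the GFP (−) arrays. In Nestin/GFP (−) cells TAF1A read a deposited 24 against a limit of 20.3, and TAF6 was not above background.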

How the results depend on the processing

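No paired analysis was possible because all 4 labels carry replicate number 1, and each population has 1 array. With each array centred on its median over all probes, 22 of 45 members were past 2-fold between the GFP (+) arrays (44.1% of all genes). There were 7 of 43 within the Oct4 line and 13 of 41 within the Nestin line (18.6% and 27.8% of all genes). The line and GFP terms of the limma fit had 11 and 3 members with an unadjusted p under 0.05 (36.1% and 9.11% of all genes). Centring on the median of probes detected everywhere gave 17 members between the GFP (+) arrays (31.2% of all genes). For the terms it gave 8 and 1 (19.0% and 5.05% of all genes). Values as deposited gave 22 and 36 members between the GFP (+) and the GFP (−) arrays (44.1% and 65.7% of all genes). Within the Oct4 and Nestin lines there were 24 and 11 (40.8% and 17.5% of all genes), and for the terms 21 and 3 (59.3% and 10.9%). After adjustment by limma the line term, with 0 members on quantile-normalized values, had 8, 2 and 17 members (520, 100 and 1399 genes) in these 3 settings and 0 members in the other alternatives fitted. A limit of 5 noise SD tests fewer genes. Within the Oct4 and Nestin lines it gave 7 of 37 and 3 of 41 members (17.1% and 9.74% of all genes). For the line and GFP terms it gave 1 and 1 of 22 members (16.9% and 3.998% of all genes). At this limit 0 members but 67 genes passed adjustment by limma for the line term. An offset of 50 with no limit gave 4, 8, 4 and 2 in the 4 comparisons (3.85%, 3.86%, 3.62% and 0.827% of all genes). For the terms it gave 16 and 1 of 66 members (9.97% and 3.85% of all genes). Probes in place of genes gave 17 between the GFP (+) arrays and 8 within the Nestin line (29.7% and 12.9% of all probes with a value). The brightest probe gave 1 for the GFP term (3.22% of all genes). The other 25 counts were within 1.5 times. Of the values of single members, 258 were within the same side of 2-fold, 62 were not and 5 turned sign: GTF3A between the GFP (+) arrays (-0.11, centred on the median or as deposited), and, as deposited, GTF2F1 (-0.73) and POLR3G (-0.69) between the GFP (−) arrays and GTF2E1 within the Oct4 line (0.061). Why the scalings differ was not tested. Little can be said of the weakly detected families, since 20 members were above background on no array. Why these were not detected was not tested.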

Other observations

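Genes that act with polymerase II after it has started were measured on the same arrays. Of 20 elongation genes with a probe, 12 were above background somewhere. Between the GFP (+) arrays 1 of 12 was more than 2-fold higher (12.8% of all genes) and 3 lower (15.4%) in Oct4 cells, with a median of -0.07. Between the GFP (−) arrays 1 of 11 was higher (16.6% of all genes) and 2 lower (9.69%), with a median of -0.09. SSRP1, a subunit of the histone chaperone FACT, was higher in the Oct4 line in both comparisons, by 1.27 between GFP (+) and 1.86 between GFP (−) cells. SUPT4H1, a subunit of the pausing factor DSIF, was lower, by -1.32 and -0.42. SUPT5H, on the same list, split by probe. One of its probes gave a bound of 0.83 between GFP (+) cells and 0.39 between GFP (−) cells, and another gave -1.44 and -0.81. CDK9, the kinase that releases paused polymerase, differed by -1.14 and -0.33. For LEO1, of the PAF1 complex, the deposited intensities were 15 and 81 in Oct4/GFP (+) and Oct4/GFP (−) cells, against 258 and 322 in Nestin/GFP (+) and Nestin/GFP (−) cells, so that the Oct4/GFP (+) array was the low one.

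Mediator, which relays activators to polymerase II, had 26 genes with a probe, of which 15 were above background somewhere and 6 on all arrays. Between the GFP (+) arrays 1 of 13 was past 2-fold above (12.8% of all genes) and 1 below (15.4%) in Oct4 cells. Between the GFP (−) arrays 3 of 15 were higher (16.6% of all genes) and 2 lower (9.69%). The medians were 0.15 and 0.17, against 0.06 and 0.16 for all genes. Of 10 SAGA genes 6 were above background somewhere, and TRRAP, its scaffold, differed by 1.55 for Oct4/GFP (+) against Nestin/GFP (+) cells and by 0.23 for Oct4/GFP (−) against Nestin/GFP (−) cells.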
